A study of Mus musculus with 35 samples.

Results

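The genes described here encode the ATP-binding cassette (ABC) proteins of the mouse small intestine other than the sterol exporters and the peroxisomal fatty acid importers. They were found by symbol: every probeset that named a single gene of the families Abca to Abcg followed by a number, or Cftr, was taken, without Abca1, Abcg1, Abcg5, Abcg8 and the Abcd genes. This gave 79 of the 45037 probesets on the array and 39 genes. To count as expressed, a probeset had to average above an expression estimate of 32 (log2 5) in 1 or more of the 8 groups, and 29 probesets of 20 genes did so, out of 8626 expressed genes in all.

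ABC proteins bind and hydrolyse ATP, and most of them use this to move a substrate across a membrane. In the gut the best known are the efflux pumps of the brush border, which return drugs, food toxins and the conjugates made by phase II enzymes to the lumen. Cftr is a chloride channel built on the same plan, Abcc8 and Abcc9 regulate potassium channels, and the Abce and Abcf proteins lack a membrane domain and act on the ribosome. PPARα is a nuclear receptor activated by fatty acids, and with its partner RXR it binds a direct repeat of the hexamer AGGTCA.

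RNA from full-length small intestine was hybridized with 1 mouse per array, 35 mice in all, 6 h after an oral gavage of 400 µl. PPARα-null and wild-type mice received the synthetic PPARα agonist WY14643 (4 and 4 mice), or a triacylglycerol of docosahexaenoic acid (DHA, 4 and 5 mice), eicosapentaenoic acid (EPA, 5 and 5) or oleic acid (OA, 4 and 4). The mice were males aged 4 months, kept for 2 weeks on a modified AIN76A diet with olive oil and fasted for 4 h. Null mice were of the 129S4/SvJae substrain and wild-type mice of 129S1/SvImJ, so that genotype and substrain cannot be told apart. WY14643 was given as a suspension in carboxymethyl cellulose and the 3 fats neat, so a comparison of WY14643 with OA also differs in vehicle and in the fat load, and these cannot be told apart. No mice without an agonist were analysed. Values are log2 expression estimates, called levels below, and a difference is always PPARα-null minus wild-type or agonist minus OA. A level belongs to its probeset and is not set against that of another probeset.

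A probeset shared by the PPARα targets Cyp4a10 and Cyp4a31 lay at 1.36 to 2.50 in 15 of the arrays labelled null and at 8.15 to 12.75 in 17 labelled wild-type. The arrays labelled PPARα-null EPA 5 (9.91), PPARα-null OA 1 (10.61) and wild-type EPA 5 (1.81) lay on the other side. Single values of named members on EPA and on null OA are therefore given as labelled and without these 3 arrays. Ranges of differences over several comparisons are as labelled only. Of 8 enterocyte markers 7 had a probeset of a single symbol, and all 7 lay above 32 in at least 1 group. Sis had no such probeset and was not read. Markers of neurons and glia, adipocytes and erythrocytes did not pass 32. Pancreatic acinar markers did, in 5 of 6 genes (all but Pnlip), although the tissue had been trimmed of pancreas, and their summed level on the linear scale was 676 to 5855 in null WY14643 mice, 5657 to 23291 in null DHA, 2525 to 27931 in null EPA and 29604 to 65961 in null OA mice. In wild-type mice it was 3612 to 19206 after WY14643, 2582 to 64454 after DHA, 36 to 43166 after EPA and 7710 to 37793 after OA.

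The windows around the start sites of the genes with the clearest differences, Abcg2, Cftr and Abce1, are printed to show what stands there. Each runs from 250 bases before the start to 50 after it, 5′ to 3′, from RefSeq on GRCm38.p6, and capitals mark AGGTCA (the core motif of nuclear receptors), GGGCGG (the GC box) and TGACGTCA (the cyclic AMP response element) on either strand. RefSeq lists 3 starts for Abcg2, and which of them the intestine used was not measured.
Abcg2 start 1 (chr6:58584283-58584582, plus strand): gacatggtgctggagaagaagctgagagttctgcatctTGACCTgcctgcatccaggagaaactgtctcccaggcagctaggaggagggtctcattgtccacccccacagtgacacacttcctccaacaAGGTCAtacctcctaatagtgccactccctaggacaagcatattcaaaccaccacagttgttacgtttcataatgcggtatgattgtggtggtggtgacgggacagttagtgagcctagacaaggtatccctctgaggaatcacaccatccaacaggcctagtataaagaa
Abcg2 start 2 (chr6:58596422-58596721, plus strand): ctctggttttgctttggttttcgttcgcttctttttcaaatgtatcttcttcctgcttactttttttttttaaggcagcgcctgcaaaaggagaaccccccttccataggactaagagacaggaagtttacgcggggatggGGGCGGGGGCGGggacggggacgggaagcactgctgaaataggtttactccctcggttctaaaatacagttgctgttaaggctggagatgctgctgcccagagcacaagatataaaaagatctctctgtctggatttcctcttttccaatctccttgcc
Abcg2 start 3 (chr6:58640296-58640595, plus strand): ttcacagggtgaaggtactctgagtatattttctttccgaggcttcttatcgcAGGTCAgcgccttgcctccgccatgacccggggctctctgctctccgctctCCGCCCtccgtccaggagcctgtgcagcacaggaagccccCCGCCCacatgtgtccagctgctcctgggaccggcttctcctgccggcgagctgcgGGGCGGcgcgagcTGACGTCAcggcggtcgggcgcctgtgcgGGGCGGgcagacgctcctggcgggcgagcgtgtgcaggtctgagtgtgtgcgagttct
Cftr (chr6:18170437-18170736, plus strand): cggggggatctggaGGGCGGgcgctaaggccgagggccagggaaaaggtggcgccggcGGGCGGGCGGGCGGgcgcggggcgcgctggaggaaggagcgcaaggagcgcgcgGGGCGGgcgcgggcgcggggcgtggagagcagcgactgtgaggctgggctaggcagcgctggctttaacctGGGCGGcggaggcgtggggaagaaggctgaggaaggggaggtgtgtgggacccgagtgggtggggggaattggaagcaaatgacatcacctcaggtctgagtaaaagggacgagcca
Abce1 (chr8:79711691-79711990, minus strand): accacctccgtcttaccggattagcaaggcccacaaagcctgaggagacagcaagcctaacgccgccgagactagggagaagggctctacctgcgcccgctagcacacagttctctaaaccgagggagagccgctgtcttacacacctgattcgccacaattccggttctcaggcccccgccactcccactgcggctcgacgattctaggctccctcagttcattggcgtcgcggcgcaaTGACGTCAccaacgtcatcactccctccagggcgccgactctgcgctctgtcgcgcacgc
The full direct repeat, AGGTCA with 1 base between its copies, was in none of the 37 windows found for 32 member genes, and in 0.04% of 32851 windows of all genes. The same repeat with any base at the fourth place, AGGNCA, was likewise in none of the 37, and in 0.381% of all. A single AGGTCA stood in 7 of 37 member windows and in 16.3% of all windows, and both Abcg2 start 1 (2 matches) and Abcg2 start 3 (1 match) held it. The GC box was in 21 of 37 member windows and in 35.7% of all, with 6 matches in Cftr, of which 3 overlap each other, 4 at Abcg2 start 3 and none in Abce1. TGACGTCA was in 2 of 37 member windows and in 1.79% of all, and the 2 were Abcg2 start 3 and Abce1, at 37 and 10 bases before the start. These matches describe letters in a window and were not tested as binding sites.

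The 20 expressed genes covered most roles unevenly. Expressed were 3 of 4 genes of apical efflux (Abcb1a, Abcc2, Abcg2), 5 of 7 other Abcc transporters (Abcc1, Abcc3, Abcc4, Abcc5, Abcc10), 2 of 3 channels and channel regulators (Cftr, Abcc9), 3 of 4 transporters of mitochondria and lysosomes (Abcb6, Abcb8, Abcb10), 4 of 13 Abca genes (Abca3, Abca7, Abca8a, Abca9) and 3 of 4 soluble proteins (Abce1, Abcf1, Abcf3). The other 19 genes stayed under 32 in every group. Among them were both bile transporters, Abcb4 and Abcb11, the second P-glycoprotein gene Abcb1b, Abcb9, Abcc6, Abcc8, Abcc12, Abcf2, Abcg3 and Abcg4. The remaining 9 were Abca2, Abca4, Abca5, Abca6, Abca8b, Abca12, Abca13, Abca14 and Abca16. Of 79 probesets, 50 were not expressed, and several expressed genes had further probesets among them, so the call rests on the probeset as much as on the gene.

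Between genotypes the members differed in few places. After WY14643, 2 of 20 genes passed an adjusted p of 0.05 in limma, Abcg2 lower and Cftr higher in PPARα-null mice, which is 10% against 7.56% of all expressed genes (3.43% higher and 4.13% lower). After DHA 2 of 20 passed, Abcg2 and Abce1, both lower in null mice, against 8.2% of all called and 4.49% lower. After EPA 0 of 20 members passed in limma and 1 had an unadjusted p under 0.05, against 0% of all genes called and 12.1% at that limit. With the 3 arrays left out, 1 of 20 passed, against 2.08% of all. After OA 0 passed and 2 had an unadjusted p under 0.05, against 0.498% of all called and 15% at that limit. When the 3 arrays were dropped, 0 of 20 passed after OA and 4 had an unadjusted p under 0.05, against 1.77% of all called and 16.1% at that limit. The members' share was thus close to that of all genes in each comparison. Their median difference was 0.02, 0.01, -0.04 and 0.01 after WY14643, DHA, EPA and OA, beside 0.06, 0.01, 0.01 and 0.00 over all expressed genes.

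Abcg2, the breast cancer resistance protein that pumps drugs, food carcinogens and urate out across the apical membrane, had the largest genotype difference among the member calls. After WY14643 its levels were 10.85, 10.76, 10.92 and 10.84 in PPARα-null mice, against 11.88, 11.86, 11.86 and 11.52 in wild-type mice. The groups did not overlap. The difference was -0.94 (SE 0.10, 95% interval -1.14 to -0.73), 1.92-fold lower in null mice, with an adjusted p of 9.4e-08. It kept its call in every alternative tried and without any one mouse.

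After DHA Abcg2 levels were 10.79, 11.07, 10.66 and 10.82 in PPARα-null mice and 11.28, 11.12, 11.16, 11.27 and 11.27 in wild-type mice, again without overlap. The difference was -0.39 (SE 0.10, adjusted p = 0.0136), 1.31-fold lower in null mice. Without null DHA mouse 3, the lowest of its group, it was -0.33 with an adjusted p of 0.0927. After EPA the null mice lay at 11.06, 11.13, 11.01, 11.16 and 11.06 and the wild-type mice at 11.33, 11.61, 11.35, 11.52 and 11.07, where the last mouse of each group is an array against its label. The groups overlapped only through that wild-type array. The difference was -0.29 (SE 0.09, adjusted p = 0.424), and without the 3 arrays -0.36 (SE 0.09, adjusted p = 0.0268), 1.28-fold lower in null mice. After OA the levels were 11.21, 11.06, 10.90 and 10.73 in null mice, the first an array against its label, and 11.35, 11.15, 11.09 and 11.14 in wild-type mice, with overlap and a difference of -0.20 (SE 0.10, adjusted p = 0.439), or -0.28 (adjusted p = 0.166) without the 3 arrays.

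The size of this genotype difference depended on the agonist. It was larger by -0.73 (SE 0.14, adjusted p = 0.00425) after WY14643 than after OA, and by -0.65 (SE 0.14, adjusted p = 0.00703) than after EPA. Without the 3 arrays these were -0.65 (adjusted p = 0.0046) and -0.58 (adjusted p = 0.0119). Abcg2 was the member called in both interactions, 1 of 20 against 1.3% of all genes each time, with 0.985% and 1.19% lower. Against DHA the interaction was -0.55 (SE 0.14, adjusted p = 0.074), and no member of 20 passed there in limma, with 3 at an unadjusted p under 0.05, 0.58% of all genes called and 11.3% at that limit. With the 3 arrays left out, the same value of -0.55 had an adjusted p of 0.0164, 1 of 20 against 1.22% of all. In the interactions of DHA with OA and of EPA with OA, Abcg2 gave -0.18 (SE 0.14) and -0.08 (SE 0.14), and 0 members were called or had an unadjusted p under 0.05, with 0% of all genes called and 8.35% and 7.91% at that limit. When the 3 arrays were dropped, these were -0.10 and -0.08, and 0 members were called, with 3 and 1 at an unadjusted p under 0.05. Of all 8626 genes, 2 and 0 were then called, and 11.6% and 7.48% passed that limit. Within wild-type mice Abcg2 was higher by 0.60 (SE 0.10, adjusted p = 6.4e-05), or 1.52-fold, after WY14643 than after OA, without overlap. Within null mice the difference was -0.13 (SE 0.10, 95% interval -0.34 to 0.07, adjusted p = 0.35), or -0.05 without the 3 arrays.

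**Figure D1:**
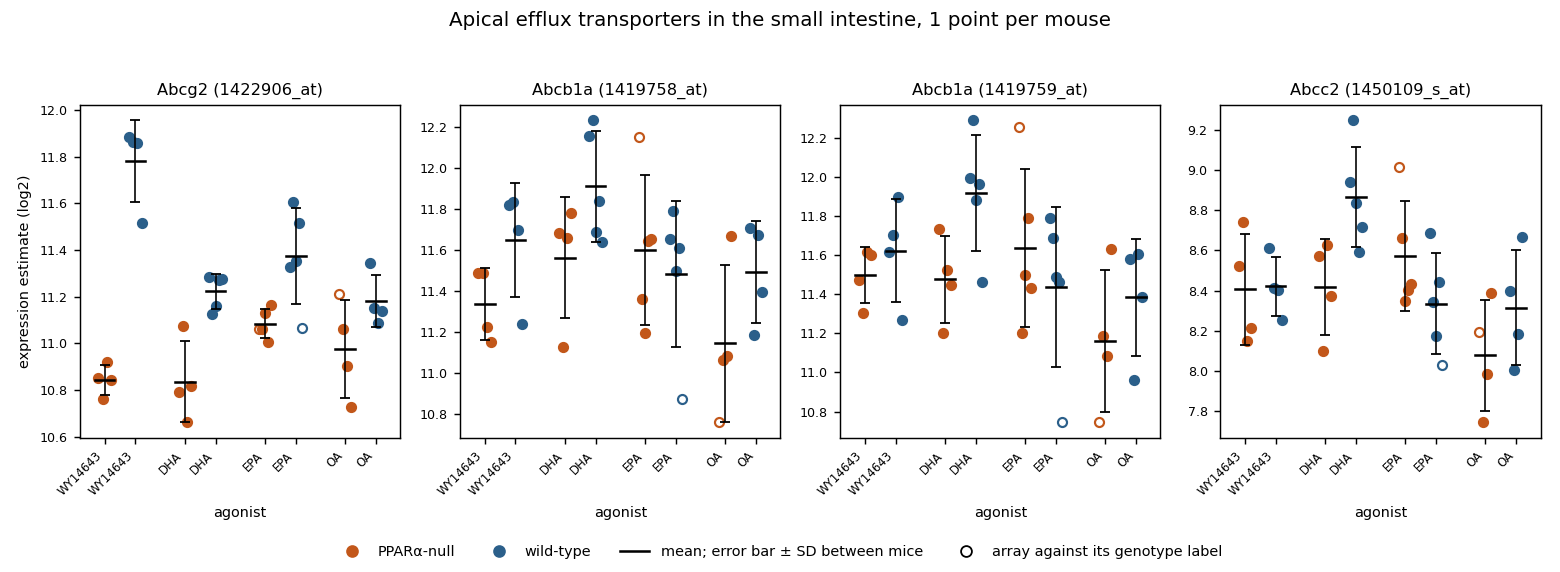
Levels (log2 expression estimate, y axis) of Abcg2, both Abcb1a probesets and Abcc2 by agonist (x axis), 1 point per mouse, PPARα-null orange and wild-type blue, with group means and SD as bars and open circles for arrays against their genotype label. For Abcg2 the wild-type WY14643 mice, at 11.52 to 11.88, lie above the null WY14643 mice, at 10.76 to 10.92, while the Abcb1a and Abcc2 groups overlap under each agonist.

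The other apical pumps did not pass the test between genotypes. Abcb1a encodes P-glycoprotein, which expels hydrophobic drugs, and was read by a pair of probesets that ran together over the 35 arrays (r = 0.87, a description). After WY14643 its differences were -0.31 (95% interval -0.73 to 0.11) and -0.12 (-0.56 to 0.31). After DHA they were -0.35 (-0.75 to 0.05) and -0.44 (-0.86 to -0.03), with adjusted p of 0.302 and 0.201. After EPA they were 0.12 and 0.20 as labelled and -0.17 and -0.13 without the 3 arrays, so the sign turned with those arrays. Null EPA mouse 5, at 12.15 and 12.25, was the highest of its group and wild-type EPA mouse 5, at 10.87 and 10.75, the lowest of its own.

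Abcc2, the export pump for glutathione and glucuronide conjugates (Mrp2), had levels of 8.57, 8.10, 8.63 and 8.38 in PPARα-null DHA mice and 8.94, 9.25, 8.84, 8.59 and 8.71 in wild-type DHA mice. The groups overlapped by 1 wild-type mouse, and the difference was -0.45 (SE 0.16, adjusted p = 0.102). After WY14643 its difference was -0.02 (95% interval -0.37 to 0.34), after OA -0.24 (-0.59 to 0.12), or -0.28 without the 3 arrays, and after EPA 0.24, or 0.05 without the 3 arrays. DHA and OA in wild-type mice differed by 0.55 for Abcc2 (SE 0.16, adjusted p = 0.0585) and by 0.42 and 0.53 for Abcb1a (SE 0.19 and 0.20, adjusted p = 0.314 and 0.177). Without the 3 arrays the Abcc2 difference and the larger of the Abcb1a differences had adjusted p of 0.0368 and 0.049. None of the 3 arrays belongs to these groups, so that the fits differ in the common estimate of the spread and in the adjustment.

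Cftr, the cyclic AMP-gated chloride channel that drives fluid into the lumen, was the member higher in null mice after WY14643. On probeset 1420579_s_at its levels were 9.65, 9.44, 9.77 and 9.63 in PPARα-null mice, against 8.97, 8.94, 9.10 and 9.21 in wild-type mice. No null mouse lay as low as any wild-type mouse. The difference was 0.57 (SE 0.12, adjusted p = 0.0022), 1.48-fold higher in null mice. Under the other agonists the groups overlapped, and the differences were 0.06 (95% interval -0.17 to 0.30) after DHA, 0.15 (-0.07 to 0.37) after EPA and 0.12 (-0.13 to 0.36) after OA. With the 3 arrays left out, they were 0.21 (-0.02 to 0.45) after EPA and 0.20 (-0.05 to 0.45) after OA, with adjusted p of 0.393 and 0.553. The interaction of WY14643 with OA was 0.45 (SE 0.17, adjusted p = 0.328), with DHA 0.50 (SE 0.17, adjusted p = 0.26) and with EPA 0.42 (SE 0.16, adjusted p = 0.404), so that none passed. When the 3 arrays were dropped, they were 0.37, 0.50 and 0.35, with adjusted p of 0.579, 0.168 and 0.698.

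Set against OA within each genotype, the low values were those of wild-type WY14643 mice. Wild-type WY14643 mice, with the levels given above, all lay under the wild-type OA mice, at 9.62, 9.50, 9.71 and 9.53, and the difference was -0.53 (SE 0.12, adjusted p = 0.00132), 1.45-fold lower after WY14643. In null mice WY14643 and OA differed by -0.09 (SE 0.12, 95% interval -0.33 to 0.16), or -0.17 (-0.42 to 0.09) without the 3 arrays. A second Cftr probeset, 1427767_a_at, did not follow the first (r = -0.30 over 35 arrays, a description). It lay at 5.81, 6.02, 3.43 and 3.27 in null WY14643 mice and at 5.49, 5.97, 3.45 and 4.86 in wild-type WY14643 mice, with a difference of -0.31 (95% interval -1.53 to 0.91) that was too imprecise to show a change of the size of the first.

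**Figure D2:**
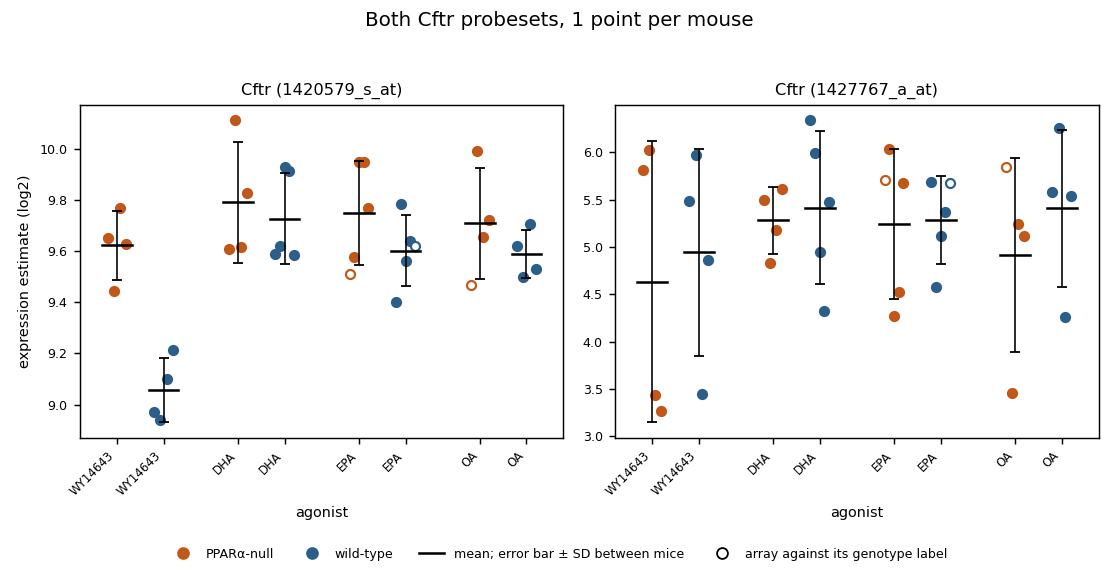
Levels (log2 expression estimate, y axis) on the 2 Cftr probesets by agonist (x axis), 1 point per mouse, PPARα-null orange and wild-type blue, bars for mean and SD, open circles for arrays against their label. On 1420579_s_at the wild-type WY14643 mice, at 8.94 to 9.21, lie under all other mice, and on 1427767_a_at single mice of several groups fall below 5.

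Genes that work beside Cftr in intestinal ion and fluid transport, a list of 14 that were all expressed, were read next to it. After WY14643 Guca2a, the precursor of guanylin, was higher by 0.32 (SE 0.10, adjusted p = 0.0475) and Slc4a4, a basolateral bicarbonate importer, by 0.33 (SE 0.09, adjusted p = 0.0298) in PPARα-null mice, 2 of 14 higher and 0 lower, beside the 3.43% of all genes that were higher. Without the 3 arrays, none of which is in these groups, 1 of 14 was higher, Slc4a4. After DHA these 2 and Slc12a2, the basolateral chloride importer, were higher, 3 of 14, beside 3.71% of all genes, while Cftr was not called. In wild-type mice WY14643 against OA gave 2 higher, Gucy2c, the guanylin receptor, by 0.52 and Slc9a3r1, a scaffold of apical channels, by 0.35, and 1 lower, Kcne3, a potassium channel subunit, by -0.50. Of all expressed genes, 16.2% were higher and 17.7% lower in that comparison. In null mice 4 were higher and 1 lower, with Gucy2c higher by 0.57 (adjusted p = 9.3e-05), and 3 and 1 without the 3 arrays. The 1 lower was Slc9a3, by -1.46 (SE 0.42, adjusted p = 0.0115), or -1.31 (adjusted p = 0.0112) without the 3 arrays. Over all genes, as labelled, 18.3% were higher and 13.3% lower in null mice. Of 6 enteroendocrine markers, 3 (Chga, Chgb, Tph1) were higher in null mice after WY14643, by 0.40 to 0.72. The summed linear level of the 6 was 4068 to 4618 in null and 2845 to 3903 in wild-type mice. Set against OA, Chga and Chgb were higher after WY14643 by 0.50 and 0.35 in null mice. Tph1 was not called against OA on its brightest probeset in either genotype. Gcg was lower in both genotypes, by -0.44 in null and -0.49 in wild-type mice. Of the 3 crypt stem and dividing-cell markers above 32, Top2a was lower after WY14643 than after OA in both genotypes (-0.77 in wild-type, -0.44 in null mice). Mki67 was lower in wild-type mice (-0.45), and Olfm4 was not called on its brightest probeset. Between genotypes after WY14643 none of the 3 was called on its brightest probeset. The part of either set of markers in the Cftr difference was not tested. In RNA of whole intestine, fewer cells of a type and less RNA per cell cannot be told apart.

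Abce1, which splits ribosomes for reuse after termination, was the other member called after DHA, on 1 of its 3 probesets. On 1442071_at the levels were 5.61, 6.09, 5.07 and 5.59 in PPARα-null mice and 6.61, 5.85, 6.34, 6.54 and 6.36 in wild-type mice. The groups overlapped, and the difference was -0.75 (SE 0.23, adjusted p = 0.0499). The other probesets gave -0.41 and -0.32 with adjusted p of 0.158 and 0.134. The call was lost without any mouse other than number 2 of either genotype, with an adjusted p of up to 0.27.

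The comparison of WY14643 with OA moved more members, as it moved more of all genes. In PPARα-null mice 7 of 20 genes were called, 4 higher and 3 lower, which is 35% against 31.5% of all expressed genes (18.3% higher and 13.3% lower). In wild-type mice 8 of 20 were called, 4 higher and 4 lower, 40% against 33.8% of all (16.2% higher and 17.7% lower). These shares lay near those of all genes. They include Abca9 in wild-type mice and Abcc10 in null mice, which passed the filter on expression only through WY14643 groups. With the 3 arrays left out, the same 7 genes were called in null mice, against 30.5% of all. The median difference of the members was 0.14 in null and 0.06 in wild-type mice, beside 0.04 and -0.01 over all genes. In null mice all 5 expressed pancreatic acinar markers were lower after WY14643 than after OA, with a median of -4.45, and their summed levels given above did not overlap. With the log2 of that sum as a covariate, a fit chosen after seeing the data, 2 of 20 members were called in null mice, Abce1 and Abcc9, against 15.2% of all genes, and 7 of 20 in wild-type mice, all of the 8 but Abcb6, against 32.1% of all. Because the sum parts WY14643 from OA mice in the null genotype, this fit separates acinar RNA from agonist poorly there. A call lost with the covariate in null mice does not tell which of them the difference follows.

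Abce1 was lower after WY14643 in both genotypes. On 1416015_s_at the levels in null mice were 8.36, 8.09, 8.23 and 8.17 after WY14643 and 8.61, 9.09, 8.91 and 8.92 after OA. In wild-type mice they were 8.21, 8.24, 8.12 and 8.35 after WY14643 and 9.10, 9.03, 8.91 and 8.94 after OA. In neither genotype did the groups overlap. The differences were -0.67 (SE 0.13, adjusted p = 0.000677), 1.59-fold lower, in null mice and -0.77 (SE 0.13, adjusted p = 0.000107), 1.70-fold lower, in wild-type mice. A further probeset, 1416014_at, ran with it over the arrays (r = 0.95, a description) and gave -1.06 (SE 0.18) in null and -0.87 (SE 0.18) in wild-type mice, while 1442071_at was not called in either. Without the null OA array against its label, the null differences were -0.76 and -1.14. Of 5 crypt stem and dividing-cell markers 3 lay above 32. Top2a was lower after WY14643 in both genotypes (-0.44 in null, -0.77 in wild-type mice) and Mki67 in wild-type mice (-0.45). Olfm4 was not called on its brightest probeset. The summed linear level of the 3 was 3980 to 4470 after WY14643 and 3886 to 4477 after OA in null mice. In wild-type mice it was 3755 to 4248 and 4078 to 4359, so the groups overlapped in both genotypes. Such a sum weights the brightest marker most, so its overlap does not show that each marker was alike. The part of these markers in the Abce1 difference was not tested.

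The other soluble proteins moved less. Abcf1, a factor of translation initiation, was called in wild-type mice on 1452429_s_at, at 7.21, 7.24, 7.16 and 7.15 after WY14643 and 7.47, 7.61, 7.53 and 7.57 after OA. The groups did not overlap, and the difference was -0.36 (SE 0.12, adjusted p = 0.0229), which lost its call without OA mouse 2 or 4 or WY14643 mouse 3 (adjusted p up to 0.0587). Its probesets 1420157_s_at (-0.23, adjusted p = 0.0923) and 1452236_at were not called, and in null mice none of them was. Abcf3, another soluble ATPase, differed by -0.33 (SE 0.15, adjusted p = 0.0899) in wild-type mice.

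Abcc1, the pump for glutathione conjugates and leukotriene C4 (Mrp1), was lower after WY14643 in both genotypes. In null mice it lay at 5.03, 4.84, 5.41 and 4.90 after WY14643 and 5.62, 5.87, 5.83 and 5.46 after OA. In wild-type mice it lay at 4.17, 4.79, 4.97 and 5.12 after WY14643 and 5.49, 5.45, 5.73 and 5.52 after OA. Neither pair of groups overlapped. The difference was -0.65 (SE 0.19, adjusted p = 0.0141), 1.57-fold lower, in null mice and -0.79 (SE 0.19, adjusted p = 0.00284) in wild-type mice, where the WY14643 mean lay under 32 and the fall was at least 1.46-fold. When the 3 arrays were dropped, the null difference was -0.67 (adjusted p = 0.0191), and with the acinar marker covariate it was -0.62 with an adjusted p of 0.0756.

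**Figure D3:**
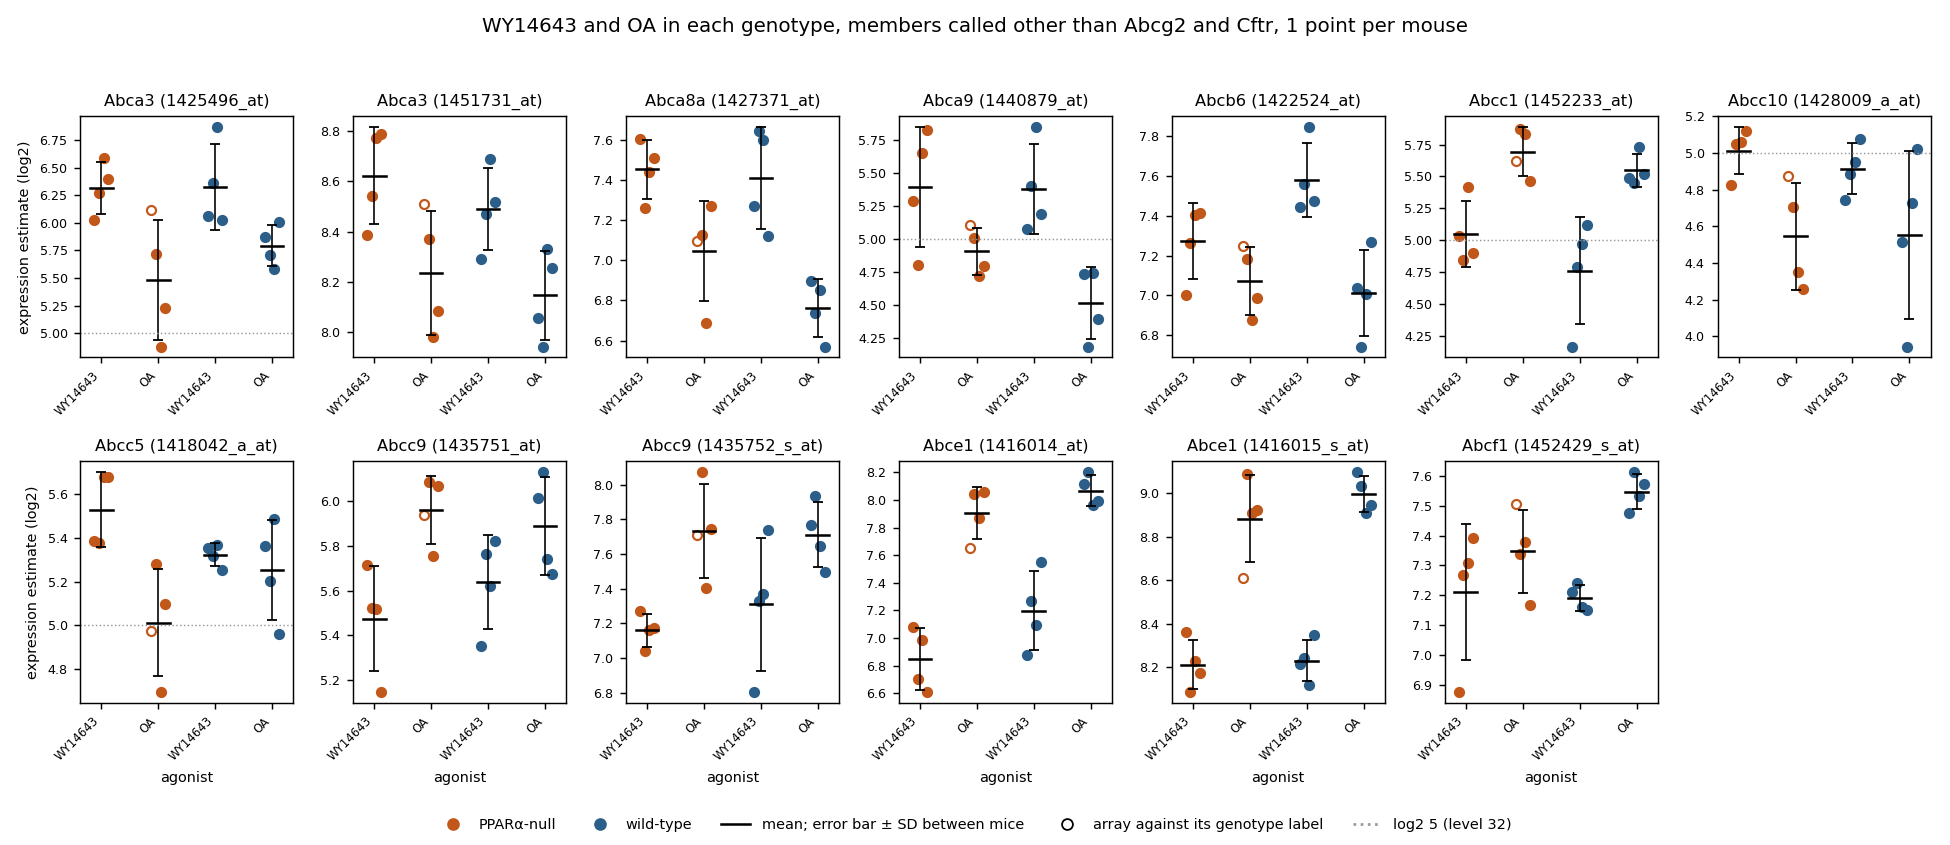
Levels (log2 expression estimate, y axis) after WY14643 and after OA (x axis) in PPARα-null (orange) and wild-type mice (blue), 1 point per mouse, for the probesets called in this comparison other than those of Abcg2 and Cftr. Bars are mean and SD, the dotted line is log2 5 where it lies in the range, and the open circle is null OA 1, an array against its label. Abce1 and Abcc1 lie lower after WY14643 without overlap in both genotypes, and the y axes differ between panels and do not start at 0.

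In the other direction, Abca8a and Abca9 rose in wild-type mice. Both are transporters of unsettled substrate and belong to 1 subgroup of the Abca family. Abca8a levels were 7.27, 7.65, 7.60 and 7.12 after WY14643 and 6.90, 6.74, 6.85 and 6.57 after OA in wild-type mice, without overlap, a rise of 0.65 (SE 0.13, adjusted p = 0.000563). In null mice they were 7.60, 7.26, 7.44 and 7.51 after WY14643 and 7.10, 7.13, 6.69 and 7.27 after OA, with overlap and a difference of 0.41 (SE 0.13, adjusted p = 0.0244), or 0.42 (adjusted p = 0.0299) without the 3 arrays. That call in null mice was lost with the acinar marker covariate (0.44, adjusted p = 0.0689), although the difference was no smaller.

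Abca9 lay at 5.07, 5.40, 5.85 and 5.18 after WY14643 and 4.73, 4.18, 4.74 and 4.39 after OA in wild-type mice. The groups did not overlap, the difference was 0.86 (SE 0.25, adjusted p = 0.0087), and since the OA mean lay under 32 the rise was at least 1.30-fold. Its probeset averaged above 32 only in the 2 WY14643 groups, so it entered the test only through groups where it was high. In null mice it lay at 5.29, 4.80, 5.65 and 5.83 after WY14643 and 5.10, 5.00, 4.72 and 4.79 after OA, which overlapped, with a difference of 0.49 (SE 0.25, adjusted p = 0.144), or 0.55 (adjusted p = 0.131) without the 3 arrays. Abcb6, a porphyrin transporter of intracellular membranes, lay at 7.44, 7.56, 7.84 and 7.47 after WY14643 and 7.03, 6.74, 7.01 and 7.27 after OA in wild-type mice. Here too no mice overlapped, with a difference of 0.57 (SE 0.20, adjusted p = 0.0372), 1.48-fold, a call that was lost without OA mouse 1, 2 or 3 or WY14643 mouse 2 or 3 (adjusted p up to 0.121). Abcb8 and Abcb10 of the mitochondrial membrane were called in no comparison, with differences, as labelled, of -0.39 to 0.13 and -0.21 to 0.20.

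A further 4 genes were called in null mice and not in wild-type mice, which does not show that the genotypes differ, since no interaction of these genes passed. Abca3, which loads lipid into surfactant bodies in the lung, lay at 6.02, 6.27, 6.58 and 6.40 after WY14643 and 6.12, 5.72, 4.88 and 5.23 after OA on 1425496_at. The groups overlapped through null OA 1, the array against its label, and the difference was 0.83 (SE 0.27, adjusted p = 0.0229), or 1.04 (adjusted p = 0.00884), then without overlap, when the 3 arrays were left out. With the acinar marker covariate it was 0.46 (adjusted p = 0.331). Its second probeset, 1451731_at, gave 0.39 (adjusted p = 0.0429) in null and 0.34 (adjusted p = 0.0667) in wild-type mice. In null mice this was 0.48 (adjusted p = 0.0181) without the 3 arrays and 0.28 (adjusted p = 0.277) with the covariate. Abcc5, an exporter of cyclic nucleotides, lay at 5.38, 5.37, 5.68 and 5.67 after WY14643 and 4.97, 5.28, 4.70 and 5.10 after OA in null mice, a difference of 0.51 (SE 0.16, adjusted p = 0.0214) without overlap. It was 0.50 (adjusted p = 0.0371) without the 3 arrays and 0.54 (adjusted p = 0.0716) with the covariate.

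Abcc10, an exporter of lipophilic anions, lay at 4.83, 5.05, 5.06 and 5.12 after WY14643 and 4.88, 4.70, 4.35 and 4.26 after OA in null mice. The groups overlapped, the difference was 0.47 (SE 0.17, adjusted p = 0.0422), and since the OA mean lay under 32 the rise was at least 1.01-fold. Its probeset averaged above 32 only in 1 group, null WY14643, so it entered the test only through the group where it was high. The difference was 0.58 (adjusted p = 0.0216) without the 3 arrays and 0.36 (adjusted p = 0.253) with the covariate. Abcc9, the regulatory subunit of potassium channels of muscle cells, lay at 7.27, 7.04, 7.16 and 7.17 after WY14643 and 7.71, 8.07, 7.41 and 7.74 after OA in null mice on 1435752_s_at. No mice overlapped, and the difference was -0.57 (SE 0.17, adjusted p = 0.0129), 1.49-fold lower, with -0.49 (SE 0.16, adjusted p = 0.0215) on 1435751_at. Without the 3 arrays they were -0.58 (adjusted p = 0.0267) and -0.50 (adjusted p = 0.0394), and with the covariate -0.60 (adjusted p = 0.0497) and -0.47 (adjusted p = 0.0942). Wild-type mice gave -0.40 (SE 0.17, adjusted p = 0.0729) on 1435752_s_at. Without null OA mouse 2 the -0.57 became -0.46 with an adjusted p of 0.0601. Leaving out null OA mouse 3 or null WY14643 mouse 4 ended the calls of Abca3, Abca8a, Abcc5 and Abcc10, with 3 of 20 members then called. Smooth muscle markers were lower in the same null mice in 1 of 6 genes (Acta2, -0.37), with a median of -0.36 and summed linear levels of 5793 to 6294 after WY14643 and 6418 to 8862 after OA. With the 3 arrays left out, 0 of 6 were lower, with a median of -0.21. Their part in the Abcc9 difference was not tested.

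The fats gave no called member against OA. In PPARα-null mice 0 of 20 were called after DHA and 0 of 20 after EPA in limma, with 3 each at an unadjusted p under 0.05, against 1.31% and 3.15% of all genes called and 16.8% and 19% at that limit. When the 3 arrays were dropped, 0 of 20 were called in either, with 5 and 3 at an unadjusted p under 0.05. Of all 8626 genes, 149 and 274 were then called, and 18.9% and 18.7% passed that limit. In wild-type mice 0 of 20 were called after DHA, with 3 at an unadjusted p under 0.05, against 4.56% of all called and 17.9% at that limit. There 0 of 20 were called after EPA, with 0 at an unadjusted p under 0.05, against 8.01% of all called and 23.5% at that limit. Without the 3 arrays 2 of 20 were called for DHA in wild-type mice, Abcc2 and Abcb1a, against 5.45% of all. Abca8a after DHA was among those at the unadjusted limit in both genotypes, at 0.44 (adjusted p = 0.114, or 0.46 with an adjusted p of 0.106 without the 3 arrays) in null and 0.34 (adjusted p = 0.172) in wild-type mice, without overlap with OA in either. These comparisons share their OA arrays. The number of mice limits the precision of all these values.

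Of the expressed members, Abca7, a phospholipid transporter of phagocytic cells, Abcc3, a basolateral exporter of bile acids and glucuronides, and Abcc4, an exporter of cyclic nucleotides, were also called in no comparison. As labelled, their differences ran from -0.34 to 0.40, from -0.53 to 0.41 and from -0.10 to 0.16. The -0.53 was Abcc3 between genotypes after OA (SE 0.25, 95% interval -1.04 to -0.01, adjusted p = 0.425), and without the 3 arrays it was -0.77 (95% interval -1.29 to -0.24, adjusted p = 0.166), then without overlap.

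**Figure D4:**
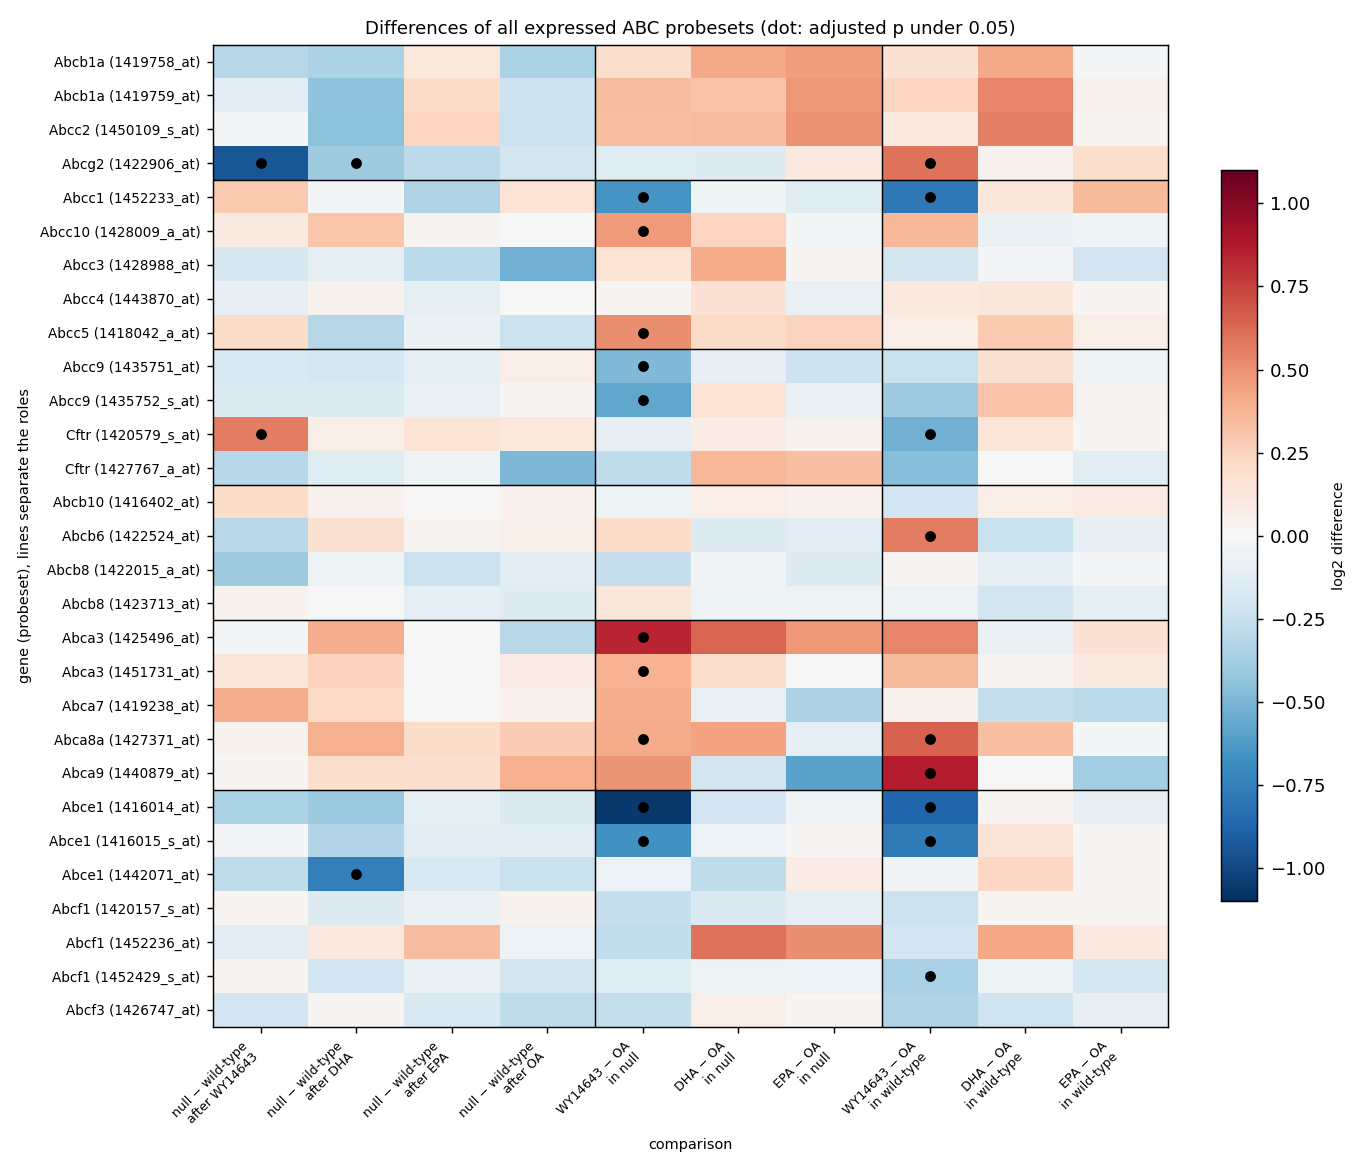
Log2 differences (colour, red higher and blue lower in the first named group) of the 29 expressed probesets (y axis, grouped by role) in 10 comparisons (x axis), with a dot where the adjusted p lay under 0.05. The dots cluster in the columns for WY14643 against OA, Abcg2 stands out in the first column at -0.94, and no dot lies in the columns for DHA or EPA against OA.

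Neighbouring ABC genes and regulators were measured beside these. Of the 5 expressed genes among the 7 left out by the rule, 2 were lower in PPARα-null mice after WY14643, the sterol exporter Abca1 by -2.34 (SE 0.31) and the peroxisomal importer Abcd3 by -1.51 (SE 0.16), both larger changes than that of Abcg2. Among 11 expressed regulators known to act on efflux genes, Nr1h4, the bile acid receptor FXR, was lower by -0.98 (SE 0.15, adjusted p = 3.54e-05) in null mice after WY14643, and as labelled no other was called between genotypes. With the 3 arrays left out, Nfe2l2, the factor of the antioxidant response, was lower by -0.31 (adjusted p = 0.0485) in null mice after OA. In wild-type mice WY14643 against OA gave 4 higher and 1 lower: Vdr, the vitamin D receptor, by 1.28, Nr1i2, the pregnane X receptor, by 0.92, Nr1h4 by 0.89 and Nr3c1, the glucocorticoid receptor, by 0.23, with Hnf4a lower by -0.31. Of all expressed genes, 16.2% were higher and 17.7% lower in that comparison. In null mice 4 were higher and 0 lower, Vdr, Rxra and Nr3c1 among them, beside 18.3% of all genes higher and 13.3% lower. The antigen peptide transporters Tap1 and Tap2 were both expressed and called in no genotype comparison.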

How the data were processed

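Whole-genome mouse arrays of 35 small intestines, 1 per mouse, were analysed. The deposited values are log2 expression estimates that the authors made with GCRMA, per the submitters' processing notes (version not given in the sources used here), which corrects background by probe sequence and sets array distributions alike, so that low values are compressed towards a common floor. Of 45101 probesets, 64 controls were left out, 34945 carried 1 gene symbol, 932 several and 9160 none. Array medians were 2.83 to 2.88, and 31.6% to 32.4% of probesets lay above 32 on each array. A linear model with 8 group means and an intensity trend was fitted in limma 3.58.1 (R 4.3.3), after checks on simulated data, with Benjamini-Hochberg adjustment over 15384 expressed probesets. Genes with 1 or more expressed probesets at an adjusted p under 0.05 are termed called. Intervals are 95%. Where a group mean lay under 32, folds were taken against 32. Each member with an expressed probeset was named, and those called were given by mouse. Labels do not say whether mice shared a litter or cage, and each was taken as a replicate. The members, lists and tests were chosen with earlier results of these data known. Alternatives are given in the closing section.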

Additional observations from a re-analysis of the deposited data

Results flagged for a closer look

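Over most, not all, of the expressed probesets of the genes called, 136 groups of 4 or 5 mice were looked at. Of these, 3 held a mouse far from the rest by Dixon's ratio, where chance alone flags about 1 group in 20. Abcg2 in wild-type WY14643 mouse 4 was 11.52, under the other 3 at 11.86 to 11.88. Abca9 in PPARα-null EPA mouse 3 was 5.16, over the other 4 at 3.93 to 4.22. Abcc5 in wild-type DHA mouse 3 was 6.05, over the other 4 at 5.31 to 5.49. The Abcg2 genotype difference differed between agonists by -0.73 for WY14643 against OA and by -0.65 for WY14643 against EPA, as tested in the interaction terms.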

How the results depend on the processing

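Of the 25 called values of single member probesets, recomputed 603 times under the alternatives, 524 stayed on the same side of the threshold, 79 lost the call and 0 turned sign. The alternatives without the 3 arrays and with the acinar marker covariate were chosen after seeing the data. Members called between genotypes after WY14643 numbered 5 with array weights and 1 without the _x_at and _s_at probesets, since Cftr is read by such a probeset. After DHA 1 was called without the filter on low values, with 1 probeset per gene, with only the groups compared and without the intensity trend, and 0 at an adjusted p under 0.01. After EPA 1 was called at an unadjusted p under 0.01 and without the 3 arrays. For WY14643 against OA in null mice, 4 were called with a floor of log2 6 and with only the groups compared, 1 at an adjusted p under 0.01 and 2 with the covariate. For DHA against OA in wild-type mice, 1 was called with array weights, with 1 probeset per gene and at an unadjusted p under 0.01, and 2 without the 3 arrays. At an unadjusted p under 0.01, 1 was called for DHA and 1 for EPA against OA in null mice. The interaction of WY14643 with DHA gave 2 with array weights and at an unadjusted p under 0.01, and 1 without the 3 arrays and with the covariate. That of WY14643 with EPA gave 2 with array weights. Leaving out 1 mouse at a time, the genotype counts were 2 to 2 after WY14643 and 0 to 3 after DHA. The counts against OA were 6 to 9 for WY14643 in wild-type mice, 3 to 7 for WY14643 in null mice and 0 to 1 for DHA in wild-type mice. The interaction of WY14643 with DHA gave 0 to 1, those with OA and EPA 1 to 1, and the rest 0 to 0. The null count was 3 without OA mouse 3 or WY14643 mouse 4 and 4 without WY14643 mouse 3. The count for DHA between genotypes was 0 without null mouse 3. Among all genes the count between genotypes ran from 349 to 2508 after WY14643, 208 to 1149 after DHA, 0 to 271 after EPA and 5 to 457 after OA. Against OA it ran from 1312 to 3676 (WY14643), 35 to 552 (DHA) and 53 to 731 (EPA) in null mice, and from 1794 to 3752, 195 to 753 and 333 to 1046 in wild-type mice. The interactions gave 47 to 384 (WY14643 and OA), 0 to 158 (DHA and OA), 0 to 174 (EPA and OA), 17 to 317 (WY14643 and DHA) and 65 to 313 (WY14643 and EPA). Same-numbered mice were not paired: their deviations correlated above 0.1 in 6 of 17 pairs (-0.44 to 0.55). The correlations differed by agonist, from 0.09 to 0.55 for WY14643 and from -0.24 to -0.05 for OA, so a shared batch of same-numbered WY14643 mice is not excluded. With the number as a replicate block, 6 of 20 members were called for WY14643 against OA in null mice, where Abcc10 gave 0.47 with an adjusted p of 0.0562, and the block changed no other call. Other scalings moved the median of all genes by at most 0.02. The causes of these shifts were not tested, beyond the fewer probesets or mice that an alternative holds. With 4 or 5 mice per group, and compression near the floor, small differences of dim probesets cannot be shown.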
